A study of Mus musculus with 2 samples.

Results

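Expression of 8 genes of the loop of Henle and distal nephron was examined in injured mouse kidney: Umod, which encodes uromodulin, the inwardly rectifying potassium channel genes Kcnj1, Kcnj10, Kcnj15 and Kcnj16, and the epithelial sodium channel (ENaC) subunit genes Scnn1a, Scnn1b and Scnn1g. They were read by every probe set that the platform annotation assigns to 1 of these symbols alone, which gave 13 of the 45101 probe sets on the array, for 8 of 18194 named genes. The EST KO AKI group was kidney tissue of 6 mice without EST (estrogen sulfotransferase, the product of Sult1e1), which inactivates estrogens by sulfating them. The WT AKI group was kidney tissue of 3 wild-type mice. All mice were male, C57BL/6 and, as far as the labels give an age, 8 weeks old. Both groups had undergone 30 min of warm bilateral renal ischemia and were killed 24 h later, which leaves an acute kidney injury (AKI). How Sult1e1 was disrupted is not stated in the labels. The tissue of each group, 124 mg from EST KO mice and 180 mg from WT mice, was pooled and read on 1 Affymetrix array, so no spread between mice can be measured, no test between the genotypes is possible, and every value below describes these 2 pools. The comparison the study was set up for is that of EST KO with wild-type kidney after the same injury. Sham-operated kidneys were not analysed here, so nothing below compares injured with uninjured tissue.

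Uromodulin is a membrane-anchored glycoprotein that thick ascending limb cells make in large amounts and shed into urine, and its transcript is regarded as specific to kidney. In the same cells Kcnj1 encodes ROMK (Kir1.1), the apical potassium channel that returns potassium to the lumen and so sustains salt uptake by the cotransporter NKCC2; ROMK also secretes potassium in the collecting duct. Kcnj10 (Kir4.1), Kcnj15 (Kir4.2) and Kcnj16 (Kir5.1) encode basolateral channel subunits. Kir5.1 pairs with Kir4.1 in the distal convoluted tubule and with Kir4.2 in the proximal tubule. Scnn1a, Scnn1b and Scnn1g encode the alpha, beta and gamma subunits of ENaC, the aldosterone-sensitive sodium channel of the late distal tubule and collecting duct.

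Kcnj15 and Kcnj16 were more than 2-fold higher in the EST KO pool, whereas Umod and Scnn1a differed by less than 1.2-fold. Kcnj1, Scnn1b and Scnn1g lay near or below the array background, and Kcnj10 lay below it in both pools. The background of an array was set from 129 probe sets of receptor and keratin-associated gene families with little kidney expression (the 95th percentile of their intensities), and stood at an intensity of 638.3 on the EST KO array and 676.1 on the WT array. A gene was called measured if its brightest probe set lay above background in at least 1 pool. That held for 7 of the 8 genes, of which 4 (Umod, Kcnj15, Kcnj16 and Scnn1a) lay above background in both pools. Of the 7, 3 were higher in the EST KO pool, 3 were lower and Scnn1g had no order. Over all 7480 measured genes the shares were 43.6% higher and 54.6% lower. At least 2-fold higher were 2 of the 7 genes, beside 3.02% of all measured genes, and none was at least 2-fold lower, beside 1.4%. The same 2 genes were the ones at least 1.5-fold higher, beside 8.46% of all measured genes, and none was 1.5-fold lower, beside 7.43%. With so few genes these shares are a description only. The median log2 ratio (EST KO over WT) of the 6 genes with a ratio was 0.05, beside −0.06 over all measured genes. In these bulk pools fewer cells of a type and less RNA per cell cannot be told apart.

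**Figure D1:**
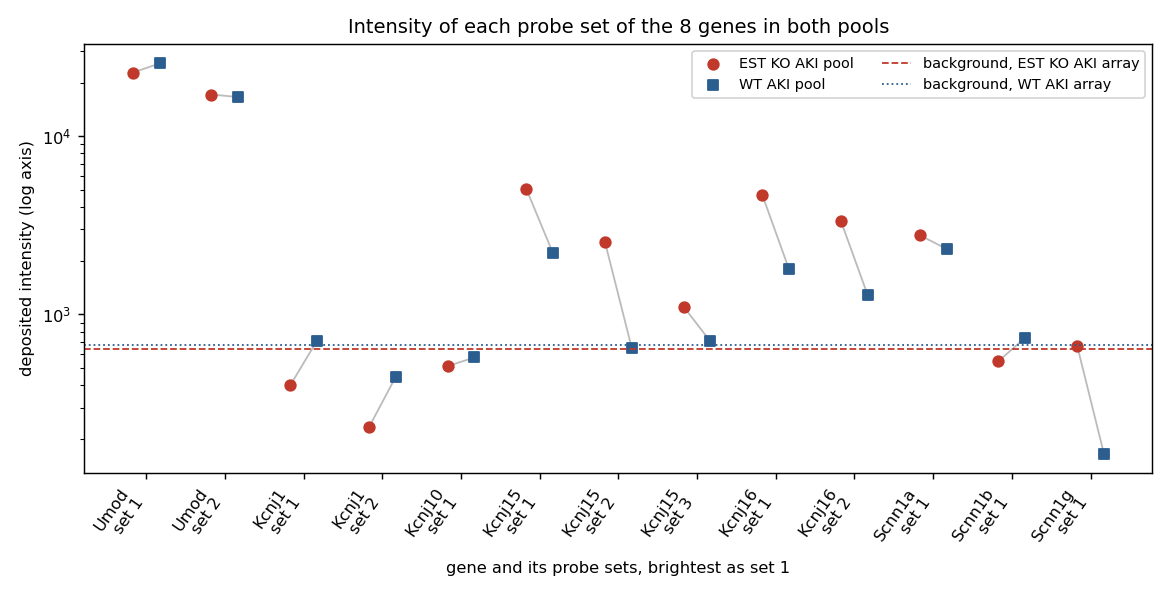
Deposited intensity (log axis) of each of the 13 probe sets of the 8 genes, with the EST KO AKI pool as circles and the WT AKI pool as squares, and the background of each array as a dashed or dotted line. The circles of all Kcnj15 and Kcnj16 probe sets stand above their squares, and the Umod pairs lie close together near the top. Kcnj1, Kcnj10, Scnn1b and Scnn1g lie around or below the background lines, with the Scnn1g square far below.

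Umod was read by 2 probe sets. Probe set 1456306_a_at gave an intensity of 22735 in the EST KO pool and 25568 in the WT pool, a log2 ratio of −0.17. Probe set 1426252_a_at gave 17121 in the EST KO pool and 16574 in the WT pool, a log2 ratio of 0.05. The probe sets thus pointed in opposite directions, and their ratios lay 0.22 apart on the log2 scale. That distance is close to the median of 0.21 between the 2 brightest probe sets of a gene, taken over the 1663 genes that have 2 or more probe sets above both backgrounds, and well under the 95th percentile of 0.81. The Umod difference between the pools was therefore no larger than the disagreement between its own probe sets. Intensities were 35.6 times background in the EST KO pool and 37.8 times in the WT pool at the brighter probe set. Of the measured genes with a ratio, bounds included, 64.0% had a higher one than Umod. The treatment protocol in the labels names liver for the EST KO pool while its other fields name kidney, and the Umod intensity of that pool was within 1.12-fold of the WT value. Alb, the serum albumin transcript that is among the most abundant in liver, lay below background in both pools, at 522.3 in the EST KO pool and 487.9 in the WT pool. Of 10 readable hepatocyte genes, 6, Alb among them, lay below background in both pools. The 4 measured ones, Ttr, Cyp2e1, Cps1 and Apoh, had ratios above 0 (median log2 ratio 0.49), but only Ttr and Cyp2e1 clearly so. Ttr stood at 11957 in the EST KO pool and 1716 in the WT pool (6.97-fold), and Cyp2e1 differed 1.79-fold. Cps1 (log2 ratio 0.15) and Apoh (0.02) differed by less than the median probe set distance of 0.21. Cyp2e1 was also high in the WT pool, at 11569, beside 20655 in the EST KO pool. Umod thus shows that the EST KO pool held kidney RNA, and the Umod transcript itself read at about the WT level there. The amount of kidney RNA in a pool cannot be read from Umod alone. Whether that pool also held liver was not tested, nor was the part of the label conflict in the results.

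Kcnj16, the Kir5.1 subunit, had the highest ratio of the 6 genes with one, when each is read at its brightest probe set. Its probe set 1436163_at read 4669 in the EST KO pool and 1788 in the WT pool, and 1435094_at read 3328 in the EST KO pool and 1278 in the WT pool. Both probe sets lay above background in both pools, and their folds of 2.61 and 2.60 differed by 0.0039 on the log2 scale. Of 7346 measured genes with a ratio, 93 (1.27%) had a higher ratio than the 1.38 of Kcnj16. Genes with a bound were counted at that bound, so the rank is approximate.

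Kcnj15, the Kir4.2 subunit, was higher in the EST KO pool at each of its 3 probe sets. Probe set 1435354_at read 5068 in the EST KO pool and 2199.7 in the WT pool, a 2.30-fold difference (log2 ratio 1.20). Probe set 1450185_a_at read 2550.1 in the EST KO pool against 649.7 in the WT pool, which is below background there, so that it was at least 3.77-fold higher. The dimmest, 1443054_at, read 1105 in the EST KO pool and 705.1 in the WT pool, a 1.57-fold difference from a WT value just above background. The 3 probe sets shared a direction but not a size. The ratios of the 2 probe sets above background in both pools lay 0.56 apart on the log2 scale, more than for Kcnj16 and inside the 95th percentile for probe set pairs. A total of 147 of 7346 measured genes with a ratio, bounds included, had a higher ratio than Kcnj15 at its brightest probe set.

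Kcnj10, the Kir4.1 subunit that pairs with Kir5.1 in the distal convoluted tubule, had 1 probe set, which gave 512.7 in the EST KO pool and 573.5 in the WT pool. Both values lay below background, at percentile 89.1 of the silent families on each array, so no fold is given. Of the 2 known partners of Kir5.1 in the nephron, Kcnj15 was thus the measured one. The array does not show whether Kcnj10 differed.

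The probe set with the higher mean for Kcnj1 (ROMK), 1418613_at, read 399.6 in the EST KO pool and 711.4 in the WT pool. The WT value lay 1.05 times above background and the EST KO value below it, so the difference was at least 1.11-fold, with the EST KO pool lower. The other probe set, 1418614_at, read 232.4 in the EST KO pool and 445.6 in the WT pool, below background in both. The deposited values were lower in the EST KO pool at both probe sets, by log2 ratios of −0.83 and −0.94, but values below background have no reliable order.

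**Figure D2:**
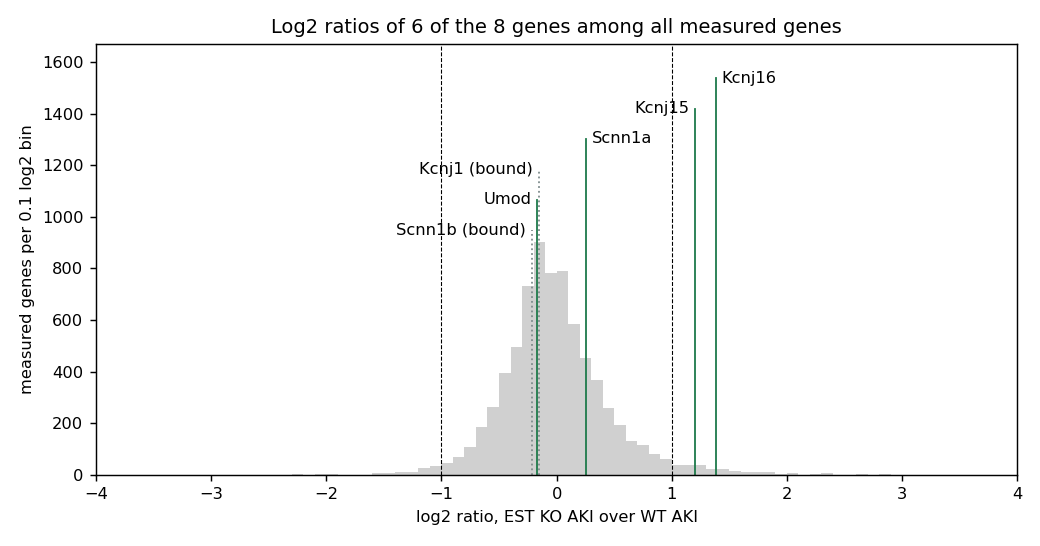
Histogram of the log2 ratio (EST KO AKI over WT AKI, horizontal axis) of all measured genes with a ratio, as genes per bin of 0.1, with vertical lines at the 6 of the 8 genes that have a ratio and dashed lines at a 2-fold difference. Kcnj15 (1.20) and Kcnj16 (1.38) lie in the right tail, and Umod, Scnn1a and the bounds for Kcnj1 and Scnn1b lie in the main body; line heights only separate the names.

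Among the ENaC subunits, Scnn1a alone lay above background in both pools. Its only probe set, 1425088_at, read 2784 in the EST KO pool and 2331 in the WT pool, 1.19-fold higher (log2 ratio 0.26). That is a little more than the median disagreement of 0.21 between probe sets of 1 gene, and less than its 95th percentile of 0.81. Scnn1b read 546.7 in the EST KO pool, below background, and 740.9 in the WT pool, 1.10 times background, a difference of at least 1.16-fold with the EST KO pool lower. Scnn1g read 668.1 in the EST KO pool, 1.05 times the background of that array, and 165.9 in the WT pool, far below background. Because 668.1 is still under the WT background of 676.1, Scnn1g has no order. The beta and gamma subunit genes lie close together on chromosome 7, with 1 predicted gene starting between them in the RefSeq table of assembly GRCm38.p6. Their deposited values ran in opposite directions, at log2 ratios of −0.44 for Scnn1b and 2.01 for Scnn1g, but each rests on a value below background. ENaC was thus readable above background in both pools through its alpha subunit only.

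Upstream sequences of Kcnj15 and Kcnj16 are shown because these are the 2 genes that were over 2-fold higher together, with that of Umod as the gene that was not. They are the 250 bases before an annotated transcription start, 5′ to 3′ on the strand of the gene, from RefSeq (GRCm38.p6). Kcnj16 has 4 starts in the table, and its first is shown, at chr11:110967783-110968032 on the plus strand. Kcnj15 lies at chr16:95257308-95257557 on the plus strand and Umod at chr7:119479263-119479512 on the minus strand. Capitals mark matches, on either strand, to AGGTCA (the core of an estrogen response element, also bound by other nuclear receptors), to AGAACA (the core of a corticosteroid receptor element) or to GTTAAT (the core of an HNF1 site, HNF1 being a transcription factor of kidney epithelium).
Kcnj16: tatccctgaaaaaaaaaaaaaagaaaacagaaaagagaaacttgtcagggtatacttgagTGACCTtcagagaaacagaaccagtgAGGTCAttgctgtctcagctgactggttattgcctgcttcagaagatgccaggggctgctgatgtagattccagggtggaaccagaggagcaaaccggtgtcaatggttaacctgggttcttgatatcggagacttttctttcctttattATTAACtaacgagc
Kcnj15: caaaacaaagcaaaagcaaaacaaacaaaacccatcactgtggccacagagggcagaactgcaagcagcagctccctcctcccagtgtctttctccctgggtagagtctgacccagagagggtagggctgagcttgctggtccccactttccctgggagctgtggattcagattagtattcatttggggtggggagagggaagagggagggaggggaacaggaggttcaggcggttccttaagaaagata
Umod: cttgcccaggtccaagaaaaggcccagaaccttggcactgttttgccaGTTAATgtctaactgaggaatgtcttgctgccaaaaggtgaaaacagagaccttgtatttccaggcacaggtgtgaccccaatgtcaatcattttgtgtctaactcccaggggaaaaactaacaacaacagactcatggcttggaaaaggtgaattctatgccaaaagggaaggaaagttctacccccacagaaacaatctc

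The first Kcnj16 window held 2 matches to AGGTCA, 1 on each strand, and 1 to GTTAAT; none of these overlap. The windows of the other starts of Kcnj16 and that of Kcnj15 held no match to any motif searched. The Umod window held 1 match to GTTAAT. Among the windows not shown, that of Scnn1b held 1 match to AGGTCA. Scnn1b was lower in the EST KO pool only as a bound, from values near background. The windows of Kcnj1 and Kcnj10 held 2 and 1 matches to AGAACA, and that of Scnn1g held none. Over all 32851 windows of the same length, 14.0% held AGGTCA, 16.1% AGAACA and 6.43% GTTAAT. The 2 genes that were higher together thus shared no match in the windows shown. A match describes these letters only, and its absence says nothing about binding of a factor. Scnn1a has no window in the table.

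Of 22 listed genes that work beside uromodulin and ROMK in the thick ascending limb, 18 could be read, and 7 of these lay below background in both pools. Of the 11 measured, 9 were higher in the EST KO pool and 2 lower, several by less than the 0.21 by which probe sets of 1 gene typically disagree, with a median log2 ratio of 0.23, beside −0.06 over all measured genes. Only Slc12a1, the NKCC2 cotransporter that depends on ROMK, was at least 2-fold higher, at 6776 in the EST KO pool and 2965 in the WT pool. It was thus 2.28-fold higher where Umod, made by the same cells, differed by less than its probe sets. Atp1b1, the beta subunit of the sodium pump, read 17346 in the EST KO pool and 12346 in the WT pool (1.40-fold higher), and 4 of 4 probe sets above background went that way. Cldn10, a paracellular cation channel protein, was 1.46-fold higher. Kng1, the kininogen gene, was 1.41-fold lower in the EST KO pool. The claudins Cldn16 and Cldn19 and Bsnd, the barttin subunit of the chloride channels, lay below background in both pools.

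Genes that act on the uromodulin protein, and related surface glycoproteins, did not share a direction. Hpn, the serine protease hepsin that releases uromodulin from the membrane, read 2073 in the EST KO pool and 663.7 in the WT pool, which is below background, and was at least 3.07-fold higher. Gpaa1, a subunit of the enzyme that attaches the membrane anchor, read 1238 in the EST KO pool and 2873 in the WT pool, 2.32-fold lower, but its second probe set differed by a log2 ratio of −0.0099. Muc1, a mucin of the tubule surface, read 109.8 in the EST KO pool and 1490 in the WT pool and was at least 2.33-fold lower. Gp2, a close relative of uromodulin, read 383.0 in the EST KO pool and 711.1 in the WT pool, at least 1.11-fold lower. Of 6 measured genes on this list of 12, 2 were higher and 4 lower (median log2 ratio −0.10).

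In the distal convoluted tubule list, which covers the segment where Kir5.1 pairs with Kir4.1, 10 of 12 measured genes had ratios above 0 and 2 below, with a median log2 ratio of 0.27. Egf, the epidermal growth factor precursor, read 11697 in the EST KO pool and 2341 in the WT pool (log2 ratio 2.32). Pvalb, the calcium-binding protein parvalbumin, read 1027 in the EST KO pool against 230.4 in the WT pool, below background, and was at least 1.52-fold higher. Trpm7, a divalent cation channel, was 1.51-fold higher. Slc12a3, the thiazide-sensitive cotransporter NCC that defines the segment, read 3605 in the EST KO pool and 2650 in the WT pool, a log2 ratio of 0.44; it was named for its role after its value was seen.

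Most listed regulators of ENaC lay above background in both pools, as Scnn1a alone did among the channel subunits. Of 24 listed genes, 17 were measured, 12 were higher in the EST KO pool and 5 lower, and the median log2 ratio was 0.07. Among the 12, Ywhab, Ank3, Spint1, Nedd4l, Dot1l and Tsc22d3 had log2 ratios from 0.003 to 0.09, under the typical probe set disagreement of 0.21. Among the 5, Nedd4 and Furin (−0.11 each) also differed by less than that. The counts thus say little about a shared direction. Sgk1, the aldosterone-induced kinase that keeps ENaC at the membrane, read 9759 in the EST KO pool and 4416 in the WT pool (2.21-fold higher). Usp2, a deubiquitinase that acts on ENaC, read 1702 in the EST KO pool and 1132 in the WT pool, a log2 ratio of 0.59, or 0.99 as the mean of its probe sets. Nedd4l, the ubiquitin ligase that removes ENaC and is held back by Sgk1, read 2755 in the EST KO pool and 2622 in the WT pool, a log2 ratio of 0.07; it too was named after its value was seen. The membrane proteases differed in direction. Tmprss2 read 3806 in the EST KO pool and 2011 in the WT pool (1.89-fold higher, with 3 of 3 probe sets above background going that way). St14, matriptase, read 1183 in the EST KO pool and 2613 in the WT pool (2.21-fold lower).

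**Figure D3:**
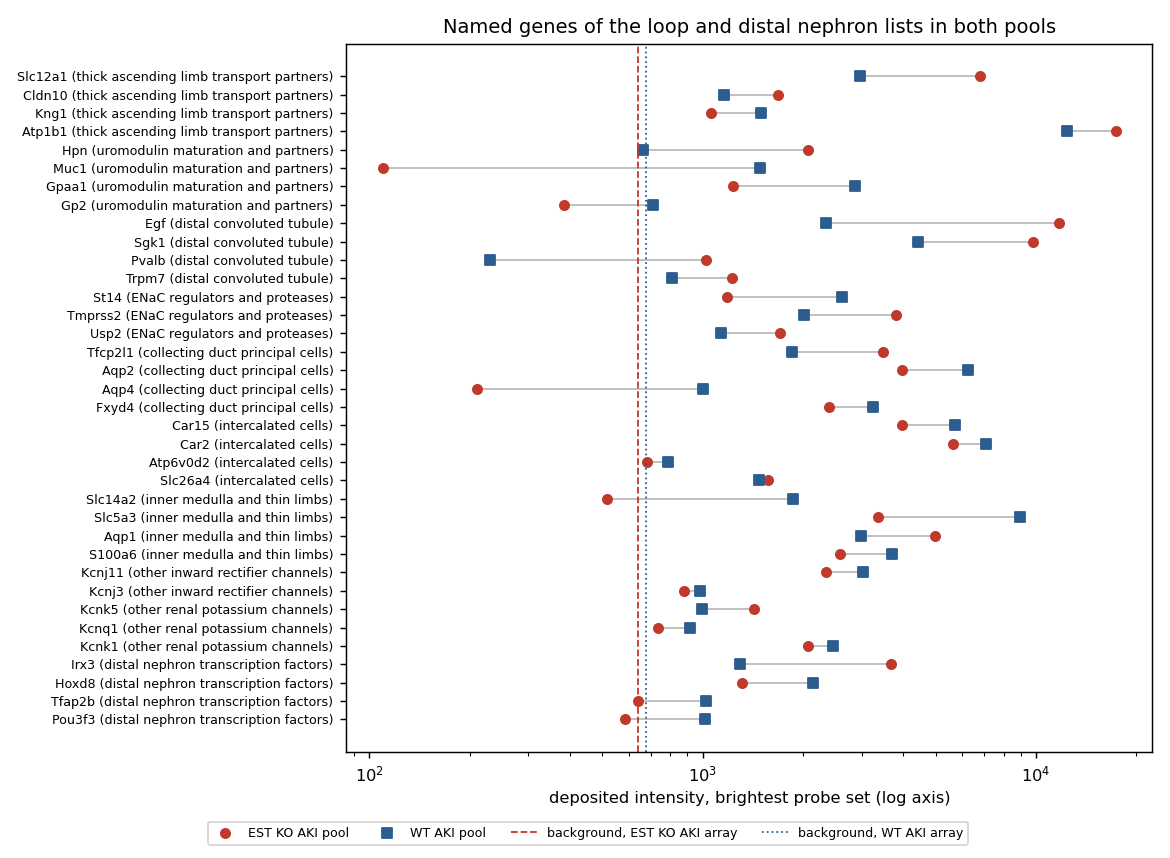
Deposited intensity (log axis) at the brightest probe set of the genes named for the size of their ratio. These are up to 4 from each loop and distal nephron list, and a gene on several lists is drawn once. Circles are the EST KO AKI pool, squares the WT AKI pool and vertical lines the array backgrounds. Slc12a1, Egf, Sgk1 and Irx3 lie higher in the EST KO pool, and St14, Slc5a3 and Slc14a2 higher in the WT pool.

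The collecting duct list, for the segment where ENaC and part of ROMK are found, had a median below 0. Of 7 measured principal cell genes, 3 were higher and 4 lower in the EST KO pool, with a median log2 ratio of −0.22. Aqp2, the vasopressin-regulated water channel, read 3964 in the EST KO pool and 6236 in the WT pool (1.57-fold lower). Aqp4, a basolateral water channel, was at least 1.57-fold lower, with 211.1 in the EST KO pool, below background, and 1003 in the WT pool. Fxyd4, a sodium pump regulator, was 1.35-fold lower. Tfcp2l1, a transcription factor of these cells, went the other way and was 1.87-fold higher, at 3476 in the EST KO pool and 1856 in the WT pool. Hsd11b2 (log2 ratio 0.29) and Aqp3 (0.04) also lay above 0. On the inner medulla and thin limb list 2 of 7 measured genes were higher and 5 lower (median −0.10, also beside −0.06 over all measured genes). Slc14a2, the urea transporter of the inner medullary collecting duct, was at least 2.92-fold lower, at 515.6 in the EST KO pool and 1865 in the WT pool. Its second probe set read 585.4 in the EST KO pool and 565.1 in the WT pool, below background in both, and did not show the difference. Slc5a3, the inositol transporter that osmotic stress induces, read 3353 in the EST KO pool and 8957 in the WT pool, 2.67-fold lower. S100a6 was 1.43-fold lower, and Aqp1, which the proximal tubule also makes in large amounts, 1.67-fold higher. How much cortex and medulla each pool held is not given in the labels, and its part in the ENaC, Kcnj1 and Umod values was not tested.

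Most other potassium channel genes lay below background. Of 11 other Kcnj genes, 2 were measured, and both were slightly lower in the EST KO pool. Kcnj11, the pore of the ATP-sensitive potassium channel (Kir6.2), read 2337 in the EST KO pool and 3028 in the WT pool, 1.30-fold lower, and Kcnj3 read 879.6 in the EST KO pool and 981.7 in the WT pool, 1.12-fold lower. Of 13 renal potassium channel genes of other families, 3 were measured. Kcnk5 (TASK-2, a channel of the proximal tubule) was 1.43-fold higher, Kcnq1 1.24-fold lower and Kcnk1 1.19-fold lower.

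Proximal tubule markers were higher together with Kcnj15 and Kcnj16, which that segment also expresses. All 15 proximal tubule markers that could be read were measured, 14 were higher in the EST KO pool and 13 at least 1.5-fold so, with a median log2 ratio of 0.95. Their summed intensity was 134775 in the EST KO pool and 65981 in the WT pool. The ratios of Kcnj15 (1.20) and Kcnj16 (1.38) lay within the range of these markers. That range was wide and held Scnn1a (0.26) too. It ran from 1.03-fold lower to 7.71-fold higher for the scaffold protein Pdzk1, with the dicarboxylate transporter Slc13a3 at 6.64-fold higher. Of 13 measured genes of injured tubule, 9 were lower in the EST KO pool, and the list summed to 85888 in the EST KO pool and 137958 in the WT pool (median −0.94), with Fgg at least 7.38-fold and Fga 6.38-fold lower. The part of the proximal tubule and injury differences in the Kcnj15 and Kcnj16 values was not tested.

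**Figure D4:**
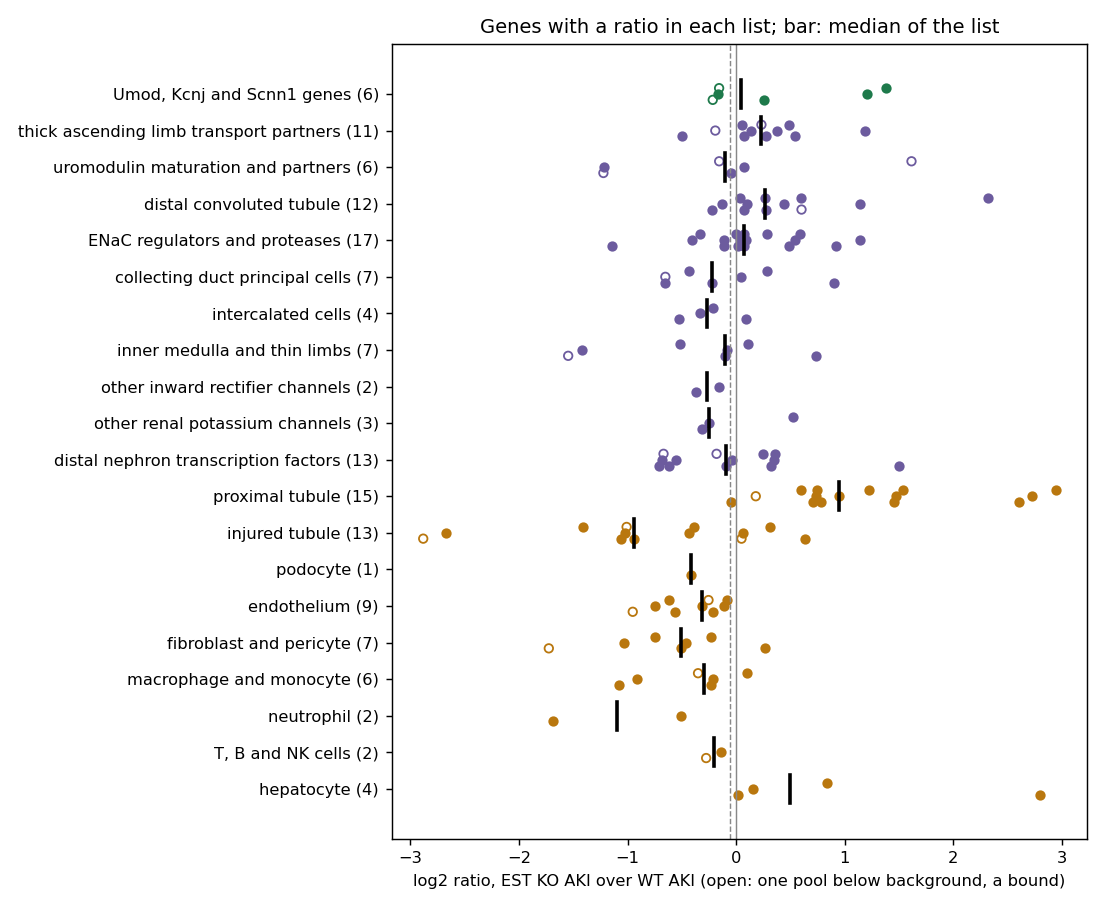
Log2 ratio (EST KO AKI over WT AKI, horizontal axis) of each gene with a ratio in the 8-gene set (top row), the loop and distal nephron lists and the cell type lists, with the number of such genes in brackets, the median as a black bar and open symbols for bounds. Kcnj15 and Kcnj16 are the 2 points at the right of the top row, among the values of the proximal tubule row. The collecting duct, inner medulla and injured tubule medians lie left of 0, as does the dashed line at the median of all measured genes.

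Markers of other cells were mostly lower in the EST KO pool. All 9 measured endothelial genes were lower (median −0.32; Nos3 at least 1.93-fold, Eng 1.68-fold, with a second Eng probe set at a log2 ratio of only −0.04), as were 6 of 7 fibroblast and pericyte genes (median −0.50; Tnc at least 3.31-fold, Vim 2.05-fold), 5 of 6 macrophage and monocyte genes (median −0.29; Cd14 2.11-fold, Tyrobp 1.88-fold) and both neutrophil genes (S100a8 3.22-fold, S100a9 1.42-fold). The lymphocyte list had 2 measured genes, Ms4a1 (at least 1.21-fold lower) and Cd8a (1.10-fold lower), the podocyte list only Podxl (1.34-fold lower) and the red blood cell list none. The control ratios of 3′ to 5′ signal were 1.28 in the EST KO pool and 1.35 in the WT pool for actin, and 0.836 in the EST KO pool and 0.882 in the WT pool for GAPDH. Sult1e1 itself read 17.2 in the EST KO pool and 472.7 in the WT pool, below background in both, so it does not check the genotype. The part of these differences in the values of the 8 genes was not tested.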

How the data were processed

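The authors deposited linear intensity values, 1 for each probe set on each array; the software behind them is not given in the sources used here. From the values, each array was scaled to a mean of 500.0 without its lowest and highest 2%. The array medians, 242.4 (EST KO) and 261.8 (WT), differed by 7.41%, under the limit of 10%, so the values were used as deposited. Names came from the platform annotation in GEO (34958 with 1 symbol, 932 with several, 9211 with none), and 34754 names were updated through the Entrez ID with the RefSeq table of GRCm38.p6, which served for names, neighbours and the upstream windows. Each gene is represented by the probe set whose mean over both arrays is highest. Values below background were raised to it before log2 was taken, so that folds against them are bounds (written "at least"); where both lie below, there is no fold, and a gene above background in 1 pool but under the background of the other has no order. A ratio is EST KO over WT.

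The members and the 20 lists (264 entries, 237 readable) were chosen with earlier results of these data known. Named genes are the 8 genes, Sult1e1, and from each list the measured genes with the largest absolute log2 ratio. Nephron and pathway lists gave up to 4 each and cell type lists up to 2. Alb, Cps1, Apoh, Cldn16, Cldn19, Bsnd, Slc12a3, Trpm6, Wnk4, Nedd4l, Aqp3 and Hsd11b2 were added after their values were seen. Lists are described by counts and medians without a test, since there is 1 array per group. The script was tested on simulated data. Alternatives (10) in scaling, background, floor and probe set choice were run with Python 3.11.15, pandas 2.3.3 and statsmodels 0.14.6. Depth does not apply to arrays; their number limits the precision.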

Additional observations from a re-analysis of the deposited data

How the results depend on the processing

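Kcnj15 and Kcnj16 stayed at least 2-fold higher in the EST KO pool under all 10 alternatives, with log2 ratios from 1.04 to 1.26 and from 1.18 to 1.43. Several alternatives could not move them, because their brightest probe sets were untouched. These were the other backgrounds, no floor, symbols not updated, and multi-transcript probe sets left out. For Kcnj15, the mean log2 ratio of the 2 probe sets above background in both pools was 0.93, under 2-fold. Umod stayed between −0.22 and −0.06 in the 9 alternatives that could read it (both its probe sets go when those that can read several transcripts are left out), and Scnn1a between 0.15 and 0.30. With background at the 99th percentile, 4 of the 8 genes were measured and 1 was lower. Without a floor Kcnj1 was at −0.83 and Scnn1b at −0.44, and Scnn1g, which has no order otherwise, ran from 0.03 to 2.01 in the 6 alternatives that gave it a value. Among partners, Gpaa1 came to −0.61, Usp2 to 0.99 and Slc5a3 to −1.10 with the mean of their probe sets, Slc14a2 to −0.92 with the 99th percentile background, and Trpm7 to 0.10, Hpn to 0.86 and Nos3 to −0.32 there. Eng came to −0.40 with the mean of its probe sets, and Muc1 ran from −0.59 to −3.76. The median of the uromodulin maturation list ran from −1.21 (with the multi-gene and multi-transcript probe sets left out) to −0.04, and that of the neutrophil list from −1.10 to −0.49. The median of the ENaC regulators ran from −0.01 to 0.44, that of the hepatocyte list from 0.06 to 1.82, and those of the other potassium channels and of the transcription factors changed sign at the 99th percentile (0.04 and 0.25). Over all genes, 226 were at least 2-fold higher and 105 lower, against 331 and 197 with no floor, 319 and 204 with background at the 75th percentile, 165 and 59 at the 99th, and 172 and 54 with a pseudocount of 500. The causes were not tested. No paired analysis was possible because each group is 1 pooled array, and for the same reason no replicate could be left out.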

Other observations

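Transcription factors of the loop and distal nephron were mixed. Of 13 measured genes, 5 had ratios above 0 and 8 below, with a median log2 ratio of −0.09. Irx3, an Iroquois factor, read 3681 in the EST KO pool and 1298 in the WT pool, 2.83-fold higher at its only probe set with a ratio. Hoxd8 read 1312 in the EST KO pool and 2150.1 in the WT pool (1.64-fold lower). Its second probe set read 534.8 in the EST KO pool, below background, and 731.5 in the WT pool, at least 1.15-fold lower. Tfap2b, a factor of the distal convoluted tubule, read 641.1 in the EST KO pool, barely above background, and 1026 in the WT pool (1.60-fold lower), and Pou3f3, a factor of the loop of Henle, was at least 1.59-fold lower, at 586.9 in the EST KO pool and 1015 in the WT pool.

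Intercalated cells, the acid and base secreting cells that lie between the ENaC-bearing principal cells, had 4 measured genes of 14 listed. Of these 3 were lower in the EST KO pool, with a median of −0.27. The carbonic anhydrases Car15 and Car2 were 1.44-fold and 1.26-fold lower, Atp6v0d2, a proton pump subunit, was 1.16-fold lower, and Slc26a4, the chloride and bicarbonate exchanger pendrin, was 1.06-fold higher, at 1568 in the EST KO pool and 1473 in the WT pool.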
